A study of Mus musculus with 12 samples.

Results

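Immunoglobulin gene segments are the pieces from which B lymphocytes build antibody genes. In this mouse liver study 65 of them were expressed, of 268 segment rows without pseudogenes and of 54532 gene rows in all. They were chosen by their level: the annotated biotype had to be an immunoglobulin segment, and the mean over all 12 libraries had to reach 0.5 FPKM (fragments per kilobase of gene and per 1000000 fragments of the library). The members were 10 constant (C) segments of 13 rows, 9 joining (J) segments of 14 and 46 variable (V) segments of 218 IG_V rows. None of the 4 IG_LV rows and none of the 19 diversity (D) rows reached the level. By locus, 25 members lay in the heavy chain locus Igh on chromosome 12, 33 in the kappa light chain locus Igk on chromosome 6 and 7 in the lambda light chain locus Igl on chromosome 16 (GRCm38).

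The libraries came from livers of Apoe knockout mice, which lack apolipoprotein E and are widely used as a model of raised blood lipids. All mice carried the knockout and had been injected with a vector made from adeno-associated virus (AAV). The 6 control libraries, numbered 1 to 6, came from animals given Gfp-AAV, and the 6 Rspo2-AAV libraries, numbered 1, 2, 4, 5, 6 and 7, from animals given a vector for R-spondin 2, a secreted enhancer of Wnt signalling. Age, sex, dose, time after injection and the promoter of the vectors are not given in the sources used here. The labels do not say that each library is a separate animal, so the p-values measure the spread between these libraries, which may be technical.

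A B cell makes its heavy chain gene by joining 1 V, 1 D and 1 J segment, and its light chain gene by joining 1 V to 1 J. Splicing then attaches a constant segment, and that of the heavy chain sets the antibody class. Resting B cells mainly carry IgM (Ighm) and IgD (Ighd), whereas plasma cells, the antibody-secreting end stage, hold far more immunoglobulin RNA and may have switched to IgG (Ighg1, Ighg2b, Ighg2c, Ighg3), IgA (Igha) or IgE (Ighe). In liver, the usual carriers of these transcripts are resident or passing B-lineage cells, not hepatocytes. A clone of such cells shares 1 heavy and 1 light V segment. In bulk tissue, a change in the number of cells and a change in RNA per cell cannot be told apart.

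The 9 J members are short, and their sequences show what the smallest features among the members look like. They are printed 5′ to 3′ on the coding strand from the GENCODE M21 transcripts (GRCm38). Capitals mark TTCGG in light chain segments and TGGGG in heavy chain segments, the letters that encode the start of the conserved phenylalanine-glycine or tryptophan-glycine turn. Coordinates are those of the gene row, and the transcripts of Igkj2 and Igkj5 hold 39 and 38 of the 43 and 42 bases of theirs. Both motifs were searched on the coding strand only. TTCGG was found in 8 of the 10 light chain J segments with a sequence, and TGGGG in 4 of 4 heavy chain J segments.
Ighj1 (chr12:113429781-113429833, minus strand): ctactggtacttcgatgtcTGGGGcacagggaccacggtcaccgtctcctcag
Ighj3 (chr12:113429085-113429132, minus strand): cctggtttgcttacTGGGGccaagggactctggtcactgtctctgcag
Ighj4 (chr12:113428514-113428567, minus strand): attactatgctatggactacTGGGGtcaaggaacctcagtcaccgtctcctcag
Igkj1 (chr6:70722562-70722599, plus strand): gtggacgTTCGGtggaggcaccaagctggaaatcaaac
Igkj2 (chr6:70722916-70722958, plus strand): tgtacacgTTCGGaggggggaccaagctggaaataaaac
Igkj3 (chr6:70723223-70723260, plus strand): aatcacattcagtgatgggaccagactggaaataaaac
Igkj4 (chr6:70723548-70723585, plus strand): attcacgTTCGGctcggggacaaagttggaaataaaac
Igkj5 (chr6:70723886-70723927, plus strand): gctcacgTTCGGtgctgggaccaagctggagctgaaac
Iglj1 (chr16:19063225-19063262, minus strand): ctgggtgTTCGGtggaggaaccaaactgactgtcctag

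For the V segments, the last 60 bases are shown for 6 members that were among the 3 leading V segments of a library in the results below. Capitals mark the codon of the conserved cysteine (TGT or TGC, after a tyrosine codon and a further tyrosine or phenylalanine codon), after which the antigen-binding loop begins and the J segment is joined. That pattern was present in the last 60 bases of 45 of the 46 V members. Igkv4-72, Igkv8-27 and Ighv10-1 led in Rspo2-AAV 1 and 2, and the 3 Igkv3 segments led in control 1 or Rspo2-AAV 4.
Igkv4-72 (chr6:69226854-69227433, minus strand): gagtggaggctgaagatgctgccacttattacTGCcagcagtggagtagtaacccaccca
Igkv8-27 (chr6:70171809-70172270, minus strand): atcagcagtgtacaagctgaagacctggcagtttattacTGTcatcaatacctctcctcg
Ighv10-1 (chr12:114479005-114479451, minus strand): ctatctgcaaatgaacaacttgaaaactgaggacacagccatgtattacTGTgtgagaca
Igkv3-2 (chr6:70698449-70699067, plus strand): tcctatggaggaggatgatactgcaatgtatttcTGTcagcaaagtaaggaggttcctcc
Igkv3-4 (chr6:70671788-70672377, plus strand): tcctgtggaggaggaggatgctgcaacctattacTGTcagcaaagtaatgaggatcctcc
Igkv3-5 (chr6:70663275-70663895, plus strand): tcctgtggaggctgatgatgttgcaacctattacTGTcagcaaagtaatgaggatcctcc

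Over their aligned transcripts the 3 Igkv3 segments were 91.3% to 91.9% identical in pairs, and Igkv4-72 was 95.4% identical to Igkv4-59 and 95.3% to Igkv4-55. In all, 26 of the 46 V members had another V member at 90% identity or more. Reads of such relatives may be divided between them or lost in counting, so the separate values of these 26 are uncertain. Only V members were compared with each other. Close relatives among the other V rows and the pseudogene rows were not examined, so the remaining V members may be affected too.

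Several libraries stood apart before any immunoglobulin value was considered. Recovered reads ranged from 14295644 to 22195576 per library. Rspo2, the vector's gene, had 0 reads in all 6 controls and 122, 49.9, 386, 573, 461 and 265 FPKM in Rspo2-AAV 1, 2, 4, 5, 6 and 7, so its 2 lowest vector libraries were numbers 1 and 2. Xist, transcribed from the inactive X chromosome of females, was found in 3 libraries. These were control 3 (42.0 FPKM), Rspo2-AAV 1 (28.0) and Rspo2-AAV 2 (5.57), with no more than 0.0186 FPKM in the other 9. Ctrb1, the chymotrypsinogen of the exocrine pancreas, reached 13284 FPKM in Rspo2-AAV 4 and 1128 in Rspo2-AAV 5, against 0.236 FPKM at most in the controls. Apoe was read at 38.8 to 149 FPKM in the controls and 43.1 to 101 in the Rspo2-AAV libraries, which does not check the knockout, since a gene-level value does not separate the deleted part.

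Immunoglobulin RNA was most abundant in Rspo2-AAV 1 and 2 and lay within the control range in Rspo2-AAV 6 and 7. Reads on the 65 members made up 95.3, 35.0, 51.3, 52.0, 45.9 and 31.1 of every 1000000 library reads (RPM) in control 1 to 6. They made up 824, 405, 173, 124, 43.1 and 35.2 RPM in Rspo2-AAV 1, 2, 4, 5, 6 and 7. Rspo2-AAV 1 was thus 8.65-fold and Rspo2-AAV 2 4.25-fold above the highest control, and Rspo2-AAV 4 and 5 were 3.57-fold and 2.56-fold above the control median. The groups overlapped, with a mean of 51.8 ± 23.0 RPM in the controls (SD, n = 6) and 268 ± 304 with Rspo2-AAV (SD, n = 6). Rspo2-AAV 1 and 2 supplied 25511 of the 36514 member reads, or 69.9%, from 19.8% of all reads.

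**Figure D1:**
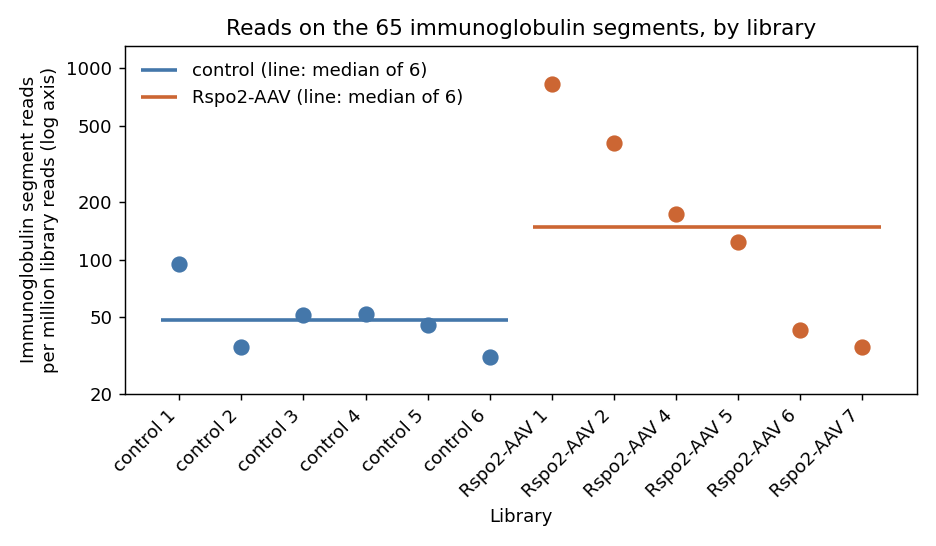
Reads on the 65 immunoglobulin segments per 1000000 library reads (RPM, log axis), 1 point per library, with a line at each group's median. Rspo2-AAV 1 and 2 lie at 824 and 405 RPM, above all 6 controls (31.1 to 95.3), while Rspo2-AAV 6 and 7 lie at 43.1 and 35.2.

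Choice by level weighs on every count over the members. Of the 65, 63 reached 0.5 FPKM in the mean of the Rspo2-AAV libraries but only 22 in the mean of the controls, and 34 would have been under it without Rspo2-AAV 1 and 2. Counts and medians over the members therefore describe these segments and support no difference between groups. Just inside the threshold were Igkv8-30 (0.502 FPKM), Igkv14-111 (0.504), Ighj1 (0.507), Ighv1-50 (0.513) and Ighv6-3 (0.518). Just outside were Ighd1-1 (0.498), Igkv10-94 (0.473), Ighv1-69 (0.469), Igkv5-43 (0.467) and the IgG1 constant segment Ighg1 (0.458).

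The comparison of the 6 Rspo2-AAV with the 6 control libraries asked whether the vector changed liver transcripts. By limma on log2(FPKM + 0.5) with Benjamini-Hochberg adjustment over 13447 genes, 0 of the 65 members passed as higher, where 2.55% of all genes tested did. Ighv1-56, a heavy chain V segment, passed as lower, and 2.65% of all genes did. At an unadjusted p under 0.05 stood 21 members, 20 of them higher, against 21.5% of all genes in either direction, and limma-voom on recovered reads also called 0 higher. The log2 difference was positive in 62 members and negative in 3, with a median of 1.11 against 0.00 for all genes tested.

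The same test within each number set gave unlike sizes. Within numbers 4 to 7 (3 control, 4 Rspo2-AAV libraries) 0 members passed as higher and Ighv1-56 as lower, against 6.34% and 6.92% of all genes. The members' median log2 difference there was 0.33, and 3 members had an unadjusted p under 0.05, against 31.0% of all genes. Within numbers 1 to 3 (3 control, 2 Rspo2-AAV libraries) the median was 2.58, and 57 members, 56 of them higher, had an unadjusted p under 0.05, against 7.10% of all genes. The vector libraries of this set are Rspo2-AAV 1 and 2, without which 34 members would have been under the level threshold. The choice by level thus favours a high count and median here, and neither supports a difference. By limma, 0 members passed there as higher or lower, as did 0% and 0% of all genes, and the smallest adjusted p of a member was 0.0599. The test of the difference between the number sets, numbers 4 to 7 minus numbers 1 to 3, called 8 V members lower and 0 higher, against 0.178% and 0.0669% of all genes.

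Those 8 were Igkv4-72, Ighv10-1, Ighv1-47, Igkv4-59, Igkv4-55, Igkv19-93, Ighv5-17 and Igkv6-15, with differences of log2 differences from -4.33 ± 0.57 (SE, Igkv4-72, adjusted p = 0.0155) to -2.26 ± 0.35 (Igkv6-15, adjusted p = 0.0298). All 8 would have been under the level threshold without Rspo2-AAV 1 and 2, so they are members only through the libraries where they are high, and nothing is read from these calls. The count was 0 with a pseudocount of 0.1, with TPM scaling and with limma-voom, it was 18 with a pseudocount of 1, and it ran from 0 to 22 when 1 library was left out. Xist and the neutrophil genes given below were high in control 3 and Rspo2-AAV 1 and 2, but not in control 1 and 2. Pancreatic genes, also given below, summed to 63.6 to 65909 FPKM in Rspo2-AAV 4 to 7. In Rspo2-AAV 1 and 2 that sum was 4.66 to 9.19 FPKM. The part of any of these in the difference between the number sets was not tested.

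The constant segments of the heavy and light chains shared their 2 highest libraries. Rspo2-AAV 1 and 2 were the 2 highest libraries for all 10 constant members, 34 of 46 V members and 3 of 9 J members, or 47 of 65, against 3.55% of all genes tested. The choice by mean level used the same values, and 34 of the 65 would have been under the threshold without Rspo2-AAV 1 and 2. The count of 47 therefore describes these members and is no support for an excess over all genes.

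Igkc, the constant segment of the kappa light chain (chr6:70726435-70726966, plus strand), had the highest level of the members. It stood at 67.2, 15.0, 19.1, 23.0, 21.3 and 11.2 FPKM in control 1 to 6, and at 330.1, 228, 68.6, 39.2, 12.1 and 9.68 FPKM in Rspo2-AAV 1, 2, 4, 5, 6 and 7. Control 1 lay close to Rspo2-AAV 4, so the groups overlapped. The log2 difference was 1.29 ± 0.81 (SE), with an adjusted p of 0.393 by limma.

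Ighm, the mu segment of IgM (chr12:113418558-113422730, minus strand), came next. Its values were 22.3, 8.72, 10.9, 11.3, 10.2 and 7.58 FPKM in control 1 to 6, and 147, 89.8, 47.7, 38.8, 12.9 and 11.7 FPKM in Rspo2-AAV 1, 2, 4, 5, 6 and 7. Every vector library lay above control 2 to 6, and control 1 lay between Rspo2-AAV 5 and 6. The log2 difference was 1.79 ± 0.55 (SE), adjusted p = 0.0843 by limma. Within numbers 4 to 7 the groups did not overlap for Ighm or for the V segment Igkv6-15, 2 of 65 members where 14.6% of all genes were higher without overlap. There the log2 difference of Ighm was 1.23 ± 0.51 (adjusted p = 0.153). The call on Ighm depended on single libraries and on the model, since it passed when Rspo2-AAV 7 was left out (2.13) and when the number set was an additive term (2.00).

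The IgG segments were highest in Rspo2-AAV 1 and 2. Ighg2c ran from 0.821 to 4.09 FPKM in the controls, with a median of 2.56. It stood at 33.7 and 22.5 FPKM in Rspo2-AAV 1 and 2, but at 3.62, 1.54, 0.932 and 0.252 in Rspo2-AAV 4, 5, 6 and 7. The last 3 of these were below the control median. Its log2 difference was 0.72 ± 0.84 over 12 libraries (adjusted p = 0.674) and turned to -0.62 without Rspo2-AAV 1 and 2, and neither value passed by limma.

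Ighg2b ran from 0.163 to 1.55 FPKM in the controls, with a median of 0.865, and stood at 23.6, 15.9, 2.43, 1.03, 0.590 and 0.325 FPKM in the vector libraries in order of number. Ighg3, the segment of an IgG subclass typical of early responses to polysaccharides, was at 0.174 FPKM or less in every control, with 14 reads in all 6 together. In the vector libraries it stood at 7.71, 4.46, 0.943, 0.445, 0.0820 and 0.0799 FPKM, from 489 reads in Rspo2-AAV 1 down to 3 in each of Rspo2-AAV 6 and 7. The log2 differences were 1.49 ± 0.78 for Ighg2b (adjusted p = 0.295) and 1.57 ± 0.59 for Ighg3 (adjusted p = 0.143) by limma. Rspo2-AAV 1, 2, 4 and 5 lay above every control for Ighg3.

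Igha, the alpha segment of the IgA made at mucosal surfaces, varied less. The controls ran from 0.388 to 1.32 FPKM with a median of 0.819, and the vector libraries held 4.57, 4.29, 1.43, 1.38, 0.515 and 0.226 FPKM in order of number. Its log2 difference of 0.63 ± 0.44 (adjusted p = 0.436 by limma) was -0.01 without Rspo2-AAV 1 and 2. Ighd, the delta segment found on resting B cells, was higher in Rspo2-AAV 2 (3.49 FPKM) than in Rspo2-AAV 1 (2.57), and Rspo2-AAV 4 reached 2.05. The controls ran from 0.223 to 0.735 FPKM, and the log2 difference was 0.95 ± 0.32 (adjusted p = 0.104 by limma).

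The lambda light chain segments Iglc1, Iglc2 and Iglc3 had means of 3.07, 1.93 and 0.955 FPKM over the 12 libraries, against 70.4 for Igkc. Iglc1 ran from 0.115 to 3.16 FPKM in the controls, the highest in control 1, and stood at 11.2, 11.9, 4.28, 1.45, 0.605 and 0.884 FPKM in the vector libraries. Iglc2 ran from 0.178 to 0.937 FPKM in the controls and reached 7.83 and 6.70 FPKM in Rspo2-AAV 1 and 2. Iglc3 ran from 0.114 to 1.00 FPKM in the controls and reached 1.93 and 3.74 FPKM in Rspo2-AAV 1 and 2. None of the 3 passed by limma, with log2 differences of 1.39 ± 0.64, 1.23 ± 0.53 and 0.73 ± 0.47 and adjusted p of 0.228, 0.205 and 0.404. Across the 10 constant members the ratio of the FPKM in Rspo2-AAV 2 to that in Rspo2-AAV 1 had a median of 0.773, from 0.578 (Ighg3) to 1.94 (Iglc3), against 0.199 for Xist and 0.408 for Rspo2.

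**Figure D2:**
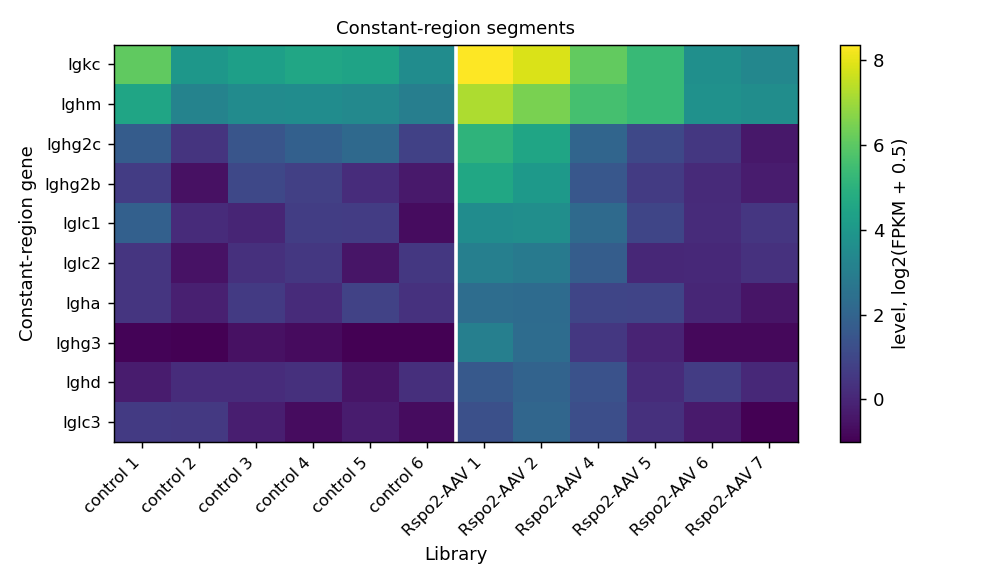
Levels of the 10 constant members on the log2(FPKM + 0.5) scale (colour) in each of the 12 libraries (columns, controls left of the white line), ordered by mean FPKM from Igkc to Iglc3. All 10 members have their 2 highest levels in Rspo2-AAV 1 and 2.

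As shares of the summed heavy chain constant FPKM, the classes describe the mixture of this RNA in each library, apart from its amount. IgM made up 61.5% to 81.3% in the controls. In the vector libraries it made up 66.5%, 63.2%, 80.0%, 86.9%, 79.5% and 88.8% in order of number. IgG, summed over its 4 subclasses, made up 9.18% to 29.2% in the controls, 30.3% and 31.2% in Rspo2-AAV 1 and 2, and 13.5%, 8.27%, 10.7% and 5.19% in Rspo2-AAV 4 to 7. Rspo2-AAV 1 and 2 had the highest IgG shares of the 12 libraries, Rspo2-AAV 4 and 6 lay within the control range and Rspo2-AAV 5 and 7 below it. Lambda segments made up 6.95% to 10.4% of the light chain constant FPKM in the controls and 5.96% to 14.6% with Rspo2-AAV, so those ranges overlapped too.

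The J members were seen in very few reads. Each is 38 to 54 bases long and had 6 to 32 reads over all 12 libraries, with 13 at most in a single library, so their FPKM are large steps of single reads. Igkj5, the J member with the highest mean, stood at 5.19 FPKM in control 2 from 4 reads and at 8.49 in Rspo2-AAV 1 from 9. Ighj4 had 13 reads in Rspo2-AAV 1 (9.54 FPKM) and 9 in Rspo2-AAV 2 (10.8 FPKM), against 0 to 2 reads in each control. Igkj3, in which TTCGG is missing from the sequence above, had 8 reads in all, 3 of them in control 2. Neither Igkj5, Ighj4 nor Igkj3 passed by limma in the 12 libraries, with adjusted p of 0.142, 0.303 and 0.620. Over all members, 31165 reads fell on constant segments, 5210 on V segments and 139 on J segments.

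The V segments were read by gene row, which does not show whether a read came from an assembled antibody gene. Their mean levels ran from 0.502 to 3.00 FPKM, from 38 to 314 reads over the 12 libraries. Igkv4-72 had the highest mean. It had 1, 0, 7, 1, 0 and 0 reads in control 1 to 6, and 232, 71, 0, 2, 0 and 0 reads in Rspo2-AAV 1, 2, 4, 5, 6 and 7, or 22.9 FPKM in Rspo2-AAV 1 and 11.5 in Rspo2-AAV 2. Among the controls 7 of its 9 reads were in control 3. The log2 difference over 12 libraries was 1.42 ± 0.95 (adjusted p = 0.421 by limma), and it was -0.21 without Rspo2-AAV 1 and 2.

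Ighv10-1 and Igkv8-27 had the same pattern of libraries. Ighv10-1 had 0, 0, 6, 1, 0 and 0 reads in control 1 to 6, and 170, 49, 0, 2, 0 and 1 reads in the vector libraries in order of number. Igkv8-27 had 1, 1, 12, 0, 0 and 3 reads in control 1 to 6, and 142, 58, 1, 2, 0 and 0 in the vector libraries. For all 3 segments, control 3 was the highest control. Their adjusted p over 12 libraries were 0.355 for Ighv10-1 and 0.512 for Igkv8-27 by limma, with log2 differences of 1.48 ± 0.87 and 1.11 ± 0.89. Without Rspo2-AAV 1 and 2 the log2 difference of Igkv8-27 was -0.37.

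The Igkv3 segments stood apart in other libraries. Igkv3-2 was at 12.2 FPKM in control 1 and at 1.09 or less in control 2 to 6, and at 8.39, 2.58, 7.23, 1.74, 0.545 and 0.885 FPKM in the vector libraries in order of number. Igkv3-4 was at 0.456 FPKM or less in every control, at 8.03 and 6.87 in Rspo2-AAV 1 and 2, and highest in Rspo2-AAV 4 at 16.4 FPKM, from 97 reads. Igkv3-5, named here after its values were seen, was at 4.54 FPKM in control 1 and 6.02 in Rspo2-AAV 1, and at 2.39 or less elsewhere. The log2 differences were 1.19 ± 0.77 for Igkv3-2 (adjusted p = 0.405) and 2.25 ± 0.69 for Igkv3-4 (adjusted p = 0.0818) by limma, and Igkv3-4 passed when Rspo2-AAV 6 was left out (2.71). Its highest library, Rspo2-AAV 4, was also the one with the most pancreatic enzyme RNA, whose part in this was not tested.

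Of the other V members with the highest means, Igkv15-103, Ighv1-53, Ighv1-81, Ighv3-6, Ighv1-26, Iglv1 and Iglv2 had Rspo2-AAV 1 and 2 as their 2 highest libraries. Igkv15-103 stood at 12.2 and 8.51 FPKM there, against 0.730 at most in the controls, and Ighv1-81 at 10.05 and 5.38 against 0.624. Iglv1, the most read lambda V segment, was at 11.9 and 6.66 FPKM in Rspo2-AAV 1 and 2 and at 5.44 in Rspo2-AAV 4, against 0.534 to 1.82 in the controls. Iglv3 was instead highest in Rspo2-AAV 2, at 3.59 FPKM against 1.35 in Rspo2-AAV 1, and was 0.286 or less in the controls. Their log2 differences ran from 1.09 ± 0.51 (Ighv1-26) to 1.40 ± 0.70 (Igkv15-103), and their adjusted p by limma from 0.0913 (Iglv3) to 0.337 (Ighv3-6).

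Ighv1-56 (chr12:115242802-115243235, minus strand) went the other way. It had 4, 9, 3, 3, 8 and 7 reads in control 1 to 6 and 1, 2, 1, 0, 0 and 0 reads in the vector libraries in order of number, or 0.442 to 1.61 FPKM against 0 to 0.371. The groups did not overlap, which was the case for this 1 member of 65 and for 1.62% of all genes in the lower direction. Its log2 difference was -1.23 ± 0.23 (SE), adjusted p = 0.00971 by limma. It reached the level threshold only through the controls (mean 0.969 FPKM, against 0.109 with Rspo2-AAV), and 1 call among 65 members is no larger a share than the 2.65% of all genes called lower, so nothing is read from this call. Within numbers 4 to 7 the difference was -1.43 ± 0.28 (adjusted p = 0.0192). Without Rspo2-AAV 4 and 5, the libraries with the most pancreatic RNA, it was -1.21 and no longer passed. Its nearest neighbour, the processed pseudogene Gm7019, lies 950 bases away and stood at 0.409 to 1.72 FPKM in the controls and 0.353 to 0.987 with Rspo2-AAV. Strand use in counting is not known.

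V reads were then compared as shares within each library, over all 222 V rows whatever their level, which sets the amount of immunoglobulin RNA aside. The libraries held 243, 82, 188, 181, 103 and 96 V reads in control 1 to 6 and 3884, 1319, 561, 318, 100 and 57 in the vector libraries in order of number. Intervals below are exact 95% binomial intervals and cover counting error only, since the reads carry no molecular identifiers.

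In control 1, Igkv3-2 alone made up 25.1% of the V reads (61 of 243, interval 19.8% to 31.0%), and Igkv3-5 a further 9.47%. Igkv3-4 made up 17.3% in Rspo2-AAV 4 (97 of 561, interval 14.3% to 20.7%) and Igkv3-2 8.02%. In Rspo2-AAV 5, Igkv6-23 led with 8.49% (27 of 318, interval 5.67% to 12.1%). Ighv1-56 led in control 2, 5 and 6, with 10.98%, 7.77% and 7.29% of few reads. These leading segments were picked by their share, so the intervals do not test them.

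Rspo2-AAV 1 and 2 had the same 3 leading V segments at nearly the same shares. Igkv4-72 made up 5.97% of V reads in Rspo2-AAV 1 (interval 5.25% to 6.77%) and 5.38% in Rspo2-AAV 2 (4.23% to 6.74%). Ighv10-1 made up 4.38% and 3.71%, and Igkv8-27 3.66% and 4.4%. In control 3, Igkv4-72 made up 3.72%, Ighv10-1 3.19% and Igkv8-27 6.38% of 188 V reads. In the other 9 libraries Igkv4-72 made up 0.63% at most, Ighv10-1 1.75% and Igkv8-27 3.12%.

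**Figure D3:**
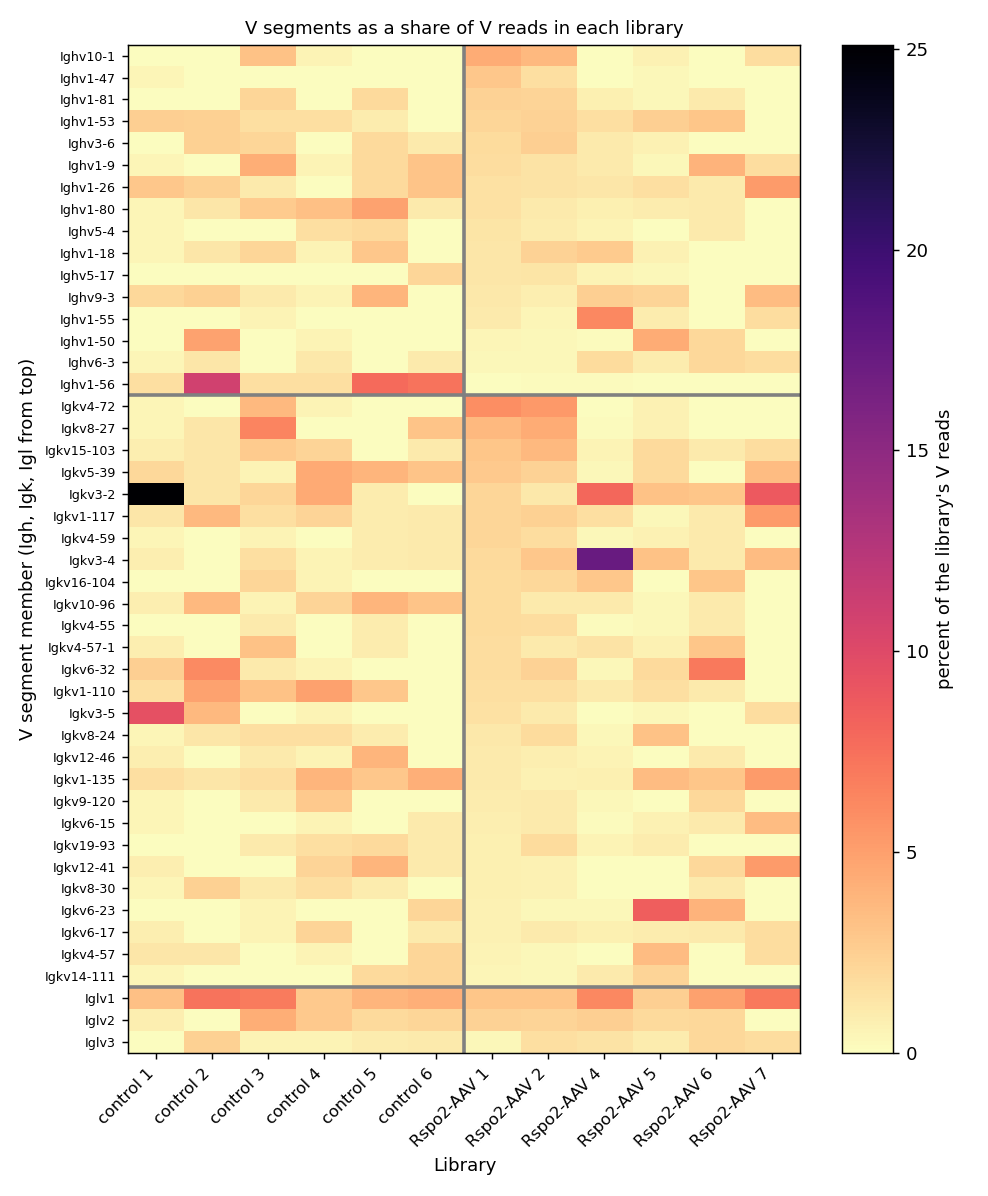
Share of each library's V reads (percent, colour) on each of the 46 V members (rows, grouped by locus and ordered by share in Rspo2-AAV 1) in the 12 libraries (columns). The darkest cells are Igkv3-2 in control 1 (25.1%) and Igkv3-4 in Rspo2-AAV 4 (17.3%), and the columns of Rspo2-AAV 1 and 2 are alike.

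Likeness of the whole V profile was measured by the cosine between the shares of 2 libraries, which is 1 for identical profiles. It was 0.95 between Rspo2-AAV 1 and 2 and 0.772 to 0.95 for the 3 pairs among control 3, Rspo2-AAV 1 and Rspo2-AAV 2. The other 63 pairs ran from 0.154 (control 1 and control 6) to 0.62 (control 2 and control 5), with a median of 0.418. Control 3, Rspo2-AAV 1 and Rspo2-AAV 2 are the 3 libraries with Xist. By cosine, control 3 shared its profile with Rspo2-AAV 1 and 2 across the treatment groups, but this depended on the measure. By Spearman rank correlation of the shares, Rspo2-AAV 1 and 2 stood at 0.847, and control 3 at 0.575 and 0.566 with them. Rspo2-AAV 1 reached 0.611 with Rspo2-AAV 4, 0.622 with Rspo2-AAV 5 and 0.531 with control 1. Control 4, with 181 V reads against the 188 of control 3, stood at 0.536 and 0.513 with Rspo2-AAV 1 and 2 by cosine. By rank correlation it stood at 0.522 and 0.515 with them. Few reads lower a cosine, and the part of read number in these values was not tested. Whether animals or RNA were shared between the 3 libraries was not tested. Between the vector libraries of the 3 the ratio of FPKM (Rspo2-AAV 2 over 1) had a median of 0.530 over the V members, with quartiles of 0.405 and 0.655.

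**Figure D4:**
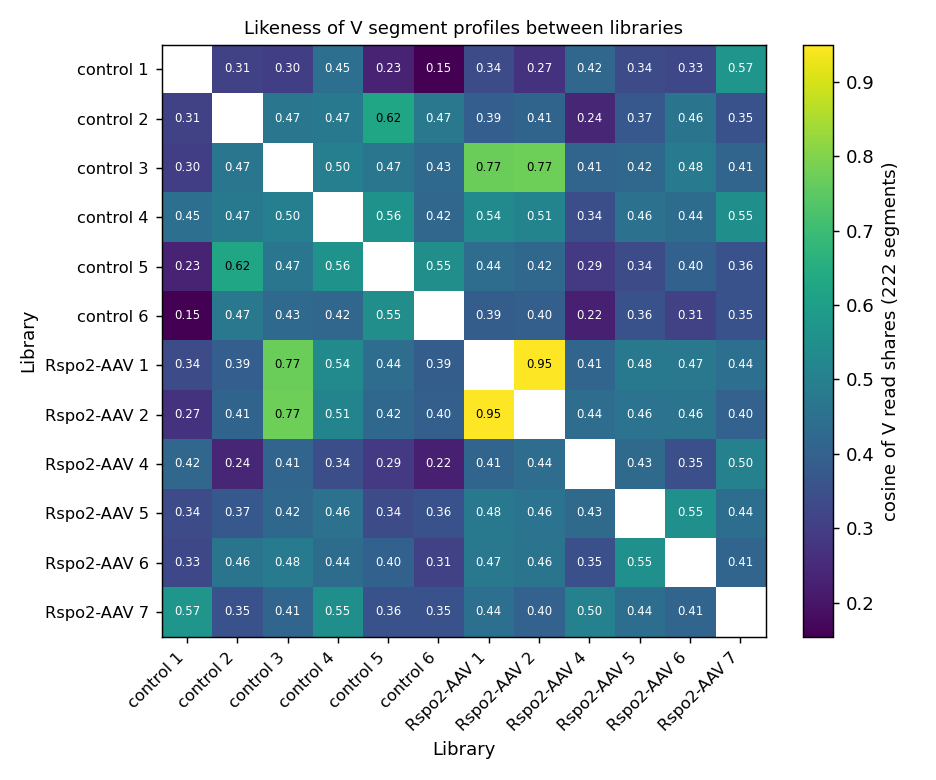
Cosine of V read shares over 222 segments for each pair of libraries (numbers in cells, colour scale at right, diagonal left blank). The pairs among control 3, Rspo2-AAV 1 and Rspo2-AAV 2 reach 0.772 to 0.95, and all other pairs lie at 0.62 or below.

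How evenly the V segments were used was given by the inverse Simpson index, the number of equally used segments that would give the same concentration. It was 12.1 in control 1, the lowest of the 12, and 24.9 to 46.1 in control 2 to 6. In the vector libraries it was 53.2, 52.1, 19.1, 41.1, 37.3 and 24.4 in order of number, so Rspo2-AAV 1 and 2 were the most even and Rspo2-AAV 4 the least even of the 6. With the exponential of Shannon entropy in its place, which weighs rare segments more, Rspo2-AAV 7 was lowest at 28.4 and control 1 stood at 30.2. Both indices are bounded by read number, and at 57 V reads per library the expected number of distinct segments was 29.6 to 38.8 in the controls and 30.7 to 38.6 with Rspo2-AAV. At that depth the group ranges overlapped almost wholly.

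Some genes that B-lineage cells use alongside the segments were high in the same libraries. The 2 highest libraries were Rspo2-AAV 1 and 2 for 2 of the 11 testable plasma cell genes and 3 of the 11 testable B cell genes of the lists below. Over all genes tested that share was 3.55%, and the counts were not tested against it. Other B cell genes went lower over the 12 libraries, with log2 differences of -0.51 (Cd72), -0.26 (Ptprc), -0.24 (Btk) and -0.09 (Blnk). The testable plasma cell genes had a median of -0.22. Jchain, which links IgM and IgA into polymers in plasma cells, stood at 3.21, 0.671, 0.935, 0.987, 1.23 and 0.684 FPKM in control 1 to 6 and at 11.5, 8.87, 3.52, 1.91, 0.518 and 0.372 in the vector libraries in order of number. The 5 libraries highest in immunoglobulin reads, Rspo2-AAV 1, 2, 4 and 5 and control 1, were also the 5 highest in Jchain. Mzb1, a chaperone of antibody assembly, reached 4.86 and 3.45 FPKM in Rspo2-AAV 1 and 2, against 0.0779 to 1.33 in the controls. Neither passed by limma, with log2 differences of 0.94 ± 0.61 (adjusted p = 0.408) and 0.99 ± 0.44 (adjusted p = 0.210).

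The signalling partners of the B cell receptor differed from Jchain in Rspo2-AAV 4. Cd79a, a signalling chain of the receptor, stood at 3.18 and 2.28 FPKM in Rspo2-AAV 1 and 2 and at 3.17 in Rspo2-AAV 4, against 0.242 to 1.21 in the controls. Cd79b, the partner of Cd79a, stood at 3.24, 3.41 and 2.29 FPKM in the same 3 libraries, against 0.443 to 0.940. Neither passed by limma, with log2 differences of 0.90 ± 0.33 (adjusted p = 0.138) and 0.95 ± 0.30 (adjusted p = 0.0864). Ms4a1 (CD20) was under the threshold for testing, at 0.717 FPKM in Rspo2-AAV 1 and 0.152 or less in the controls.

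**Figure D5:**
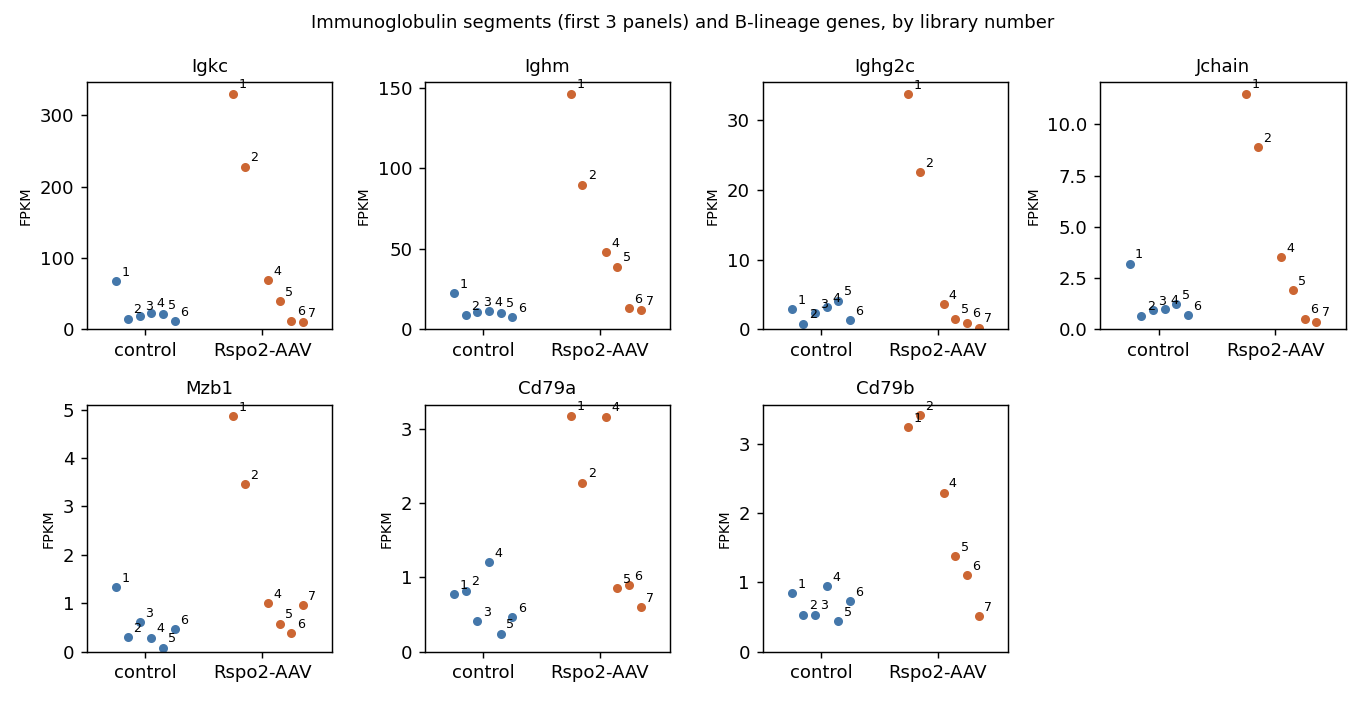
FPKM (linear axes from 0) of Igkc, Ighm, Ighg2c, Jchain, Mzb1, Cd79a and Cd79b in each library, 1 point per library labelled with its number, controls in blue and Rspo2-AAV in orange. Rspo2-AAV 1 and 2 are high in all 7 panels, and Rspo2-AAV 4 joins them for Cd79a (3.17 FPKM) but not for Ighg2c (3.62 FPKM against 33.7).

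Of the plasma cell list, 11 of 21 genes were testable and 0 passed in either direction (median log2 difference -0.22). Beside the calls of this list and those below, 2.55% of all genes tested passed as higher and 2.65% as lower. Sdc1 and Xbp1, which hepatocytes also express, were abundant everywhere, at 52.5 to 120.3 FPKM and 70.6 to 156 FPKM, and the regulators Prdm1 and Irf4 stayed at 0.372 FPKM or less. Tnfrsf17, the plasma cell survival receptor, was at 0.149 FPKM or less, with 0 in all controls. Of the B cell list, 11 of 21 were testable, 2 passed as higher and 0 as lower (median 0.65). These were Ly6d, 3.69 to 24.9 FPKM in the controls and 31.5 to 93.2 with Rspo2-AAV (log2 difference 2.35 ± 0.44, adjusted p = 0.00909), and the transcription factor Spib (0.76 ± 0.19, adjusted p = 0.0357). Ly6d was highest in Rspo2-AAV 5 and not in Rspo2-AAV 1 and 2, an order unlike that of the segments. Summed over the B cell list, levels ran from 10.3 to 35.7 FPKM in the controls, 55.8 to 60.8 in Rspo2-AAV 1 and 2 and 63.2 to 103 in Rspo2-AAV 4 to 7, most of it Ly6d in the vector libraries. Spib no longer passed under most alternatives.

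Genes of recombination, class switching and germinal centres gave 0 calls among 6 testable of 14 (median -0.27). Rag1, the recombinase, was at 0.0199 FPKM or less in every library. The immunoglobulin receptors gave 0 calls among 11 (median -0.22), with Pigr, which carries IgA into bile, at 212 to 367 FPKM and Fcgrt, which protects IgG from breakdown, at 56.7 to 109.9. Plasma cell homing and survival factors gave 0 calls among 9 testable of 17 (median -0.15), with Cxcl12 at 26.0 to 51.3 FPKM. The medians stand beside 0.00 for all genes tested. In the comparison within numbers 4 to 7, 1 receptor passed as higher and 3 as lower, among them Pigr (log2 difference -0.45, adjusted p = 0.0315 by limma). Of all genes tested, 6.34% passed there as higher and 6.92% as lower. In that set the plasma cell list again gave 0 calls, the B cell list 1 higher (Ly6d) and 1 lower, the recombination list 1 and 1, and the homing list 0 and 1. Within numbers 1 to 3 none of the 13 lists had a called gene. There 0% of all genes tested passed in either direction, so nothing is read about the lists from this.

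Markers of other cells were read in the same libraries, and their part in the immunoglobulin values was not tested. The T cell list gave 0 calls among 6 testable of 14, with a summed level of 6.97 to 11.3 FPKM in the controls, 12.02 to 13.4 in Rspo2-AAV 1 and 2 and 4.52 to 14.7 in Rspo2-AAV 4 to 7. Of the NK cell list, 1 of 3 testable passed as lower (Gzma, log2 difference -0.68 ± 0.17, adjusted p = 0.0397), a call lost under most alternatives. The Kupffer cell and macrophage list, tested in full, had 4 of 11 lower and 0 higher, against 2.65% and 2.55% of all genes tested. Among the 4 were Marco (-2.28 ± 0.42, adjusted p = 0.00864) and Clec4f (-1.40 ± 0.30, adjusted p = 0.0177). The neutrophil list gave 0 calls among 6 testable of 10, but its summed level was 60.1 FPKM in control 3 and 53.1 to 60.1 in Rspo2-AAV 1 and 2, against 6.81 to 22.7 in the other 9. Those are the Xist libraries again. Of the 11 Kupffer cell and macrophage genes, 7 passed as lower within numbers 4 to 7, against 6.92% of all genes tested. The T cell, NK cell and neutrophil lists gave 0 calls there.

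The erythroid list had 4 of 7 testable genes higher and 0 lower, against 2.55% and 2.65% of all genes tested. The 4 were Hba-a1 (2.54 ± 0.49, adjusted p = 0.0109), Hbb-bs (2.43 ± 0.50, adjusted p = 0.0155), Hba-a2 and Hbb-bt, which share near-identical copies. The list's summed level was 97.4 to 354 FPKM in the controls, 763 to 1368 in Rspo2-AAV 1 and 2 and 229 to 633 in Rspo2-AAV 4 to 7. Rspo2-AAV 1 and 2 were the 2 highest libraries for 5 of the 7, against 3.55% of all genes tested. The 2 testable plasmacytoid dendritic cell genes and the 9 testable hepatocyte genes gave 0 calls. The erythroid list had 0 higher and 1 lower within numbers 4 to 7, the plasmacytoid list 0 and 1, and the hepatocyte list 0 and 2. The pancreatic acinar list gave 0 calls among 23, with summed levels of 4.72 to 16.3 FPKM in the controls, 4.66 to 9.19 in Rspo2-AAV 1 and 2 and 63.6 to 65909 in Rspo2-AAV 4 to 7. Within numbers 4 to 7, 7 of the 23 passed as higher and 0 as lower (median 6.84), against 6.34% and 6.92% of all genes tested.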

How the data were processed

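Bulk liver RNA was sequenced in 12 libraries. The authors deposited FPKM values for 54532 genes on the GRCm38 build. The submitters' processing notes name DESeq2 1.20.0, featureCounts 1.5.0-p3 and HISAT2 2.0.5 without saying which made the values. Per the labels' protocols libraries were poly-A selected and either directional or non-directional, so reads of overlapping genes cannot be told apart; 11 members overlap another gene, each such partner at 0.133 FPKM or less. All 65 members had identical coordinates in GENCODE M21. Whole reads were recovered from FPKM and gene length (100% whole within 0.01 reads). Groups were compared with limma 3.58.1 (R 4.3.3, lmFit and trended eBayes) on log2(FPKM + 0.5), which understates changes of low genes, over the 13447 genes whose mean reached 0.5 FPKM, called at a Benjamini-Hochberg adjusted p under 0.05. On simulated data for the 12-library comparison of 13447 genes it recovered 71% of 2-fold and 95% of 4-fold changes. The changed genes were drawn at random from all tested genes, with independent noise, so these rates need not hold for the members. The SE of the log2 difference was 0.81 for Igkc and 0.84 for Ighg2c, for example. That 0 members were called higher therefore does not show that they were unchanged. Members and gene lists were chosen with earlier results of these data known. Genes were named by rule: all constant members, the 5 V members with the highest mean per locus, called members, a fixed set of B-lineage and receptor genes, and up to 3 called or the 2 highest genes per list; others were chosen after their values were seen. Summed reads, class shares and V shares were described without a test. Some genes of the lists are not reported here.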

Additional observations from a re-analysis of the deposited data

Results flagged for a closer look

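Among 70 groups of 6 libraries examined, 12 had a library farther from its neighbour than Dixon's 95% critical value allows. That value assumes normally spread values, whereas many groups here hold few reads, and they share the same libraries. The count of 12 therefore describes these groups and cannot be set against a rate by chance. Control 1 was the high library for 8 of them: member reads (95.3 RPM), Igkc (67.2 FPKM), Ighm (22.3), Iglc1 (3.16), Igkv3-2 (12.2), Ighv1-53 (1.29), Ighv1-26 (1.5) and Jchain (3.21). Control 3 was the high control for Igkv4-72 (0.953 FPKM), Ighv10-1 (0.915) and Igkv8-27 (1.83), the 3 V segments that led in Rspo2-AAV 1 and 2. Rspo2-AAV 2 was the high vector library for Iglv3 (3.59 FPKM).

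Limma's interaction term passed for 8 V segments between numbers 4 to 7 and numbers 1 to 3. All 8 reached the level threshold only through Rspo2-AAV 1 and 2, and the calls were 0 with a pseudocount of 0.1, TPM scaling or limma-voom and 18 with a pseudocount of 1, so nothing is read from them. The difference of log2 differences was -4.33 for Igkv4-72, -4.06 for Ighv10-1, -3.50 for Ighv1-47, -3.18 for Igkv4-59, -3.14 for Igkv4-55, -3.04 for Igkv19-93, -2.91 for Ighv5-17 and -2.26 for Igkv6-15. In each, the larger effect was in numbers 1 to 3, where the vector libraries are Rspo2-AAV 1 and 2.

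Immunoglobulin pseudogene rows, which no comparison used, held reads above the highest control (0.116 reads per 1000000 library reads, RPM) in Rspo2-AAV 2 (0.393 RPM, 7 reads) and Rspo2-AAV 4 (0.178 RPM, 3 reads).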

How the results depend on the processing

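The count of members called higher, 0 over the 12 libraries, ran from 0 to 3 when 1 library was left out (2 without Rspo2-AAV 6, 3 without Rspo2-AAV 7), and was 5 with the number set as an additive term. Same-numbered libraries did not deviate together (correlations of -0.249 to 0.156 over 5 numbers), so the numbers do not pair the libraries; a fit with the replicate block over the 10 libraries of shared numbers called 4 higher and 0 lower, and the same 10 libraries without the block 2 higher. The count called lower, 1 (Ighv1-56), was 0 with a mean of at least 1 FPKM, where that segment is not tested, 0 without Rspo2-AAV 4 and 5 and 0 in numbers 1 to 3 alone. Within numbers 4 to 7 the count of 1 was 0 without a filter and 0 with a mean of at least 1 FPKM, and 0 to 2 with 1 library left out; within numbers 1 to 3 the count of 0 was 1 with a pseudocount of 0.1 (Ighv5-17). The 8 calls on the difference between number sets were the least stable: 0 with a pseudocount of 0.1, 18 with 1, 4 with a mean of at least 1 FPKM, 0 with TPM scaling, 0 with limma-voom, and 0 to 22 with 1 library left out (0 without control 1, 4 or 5, 1 without control 2, 2 without control 6, 16 without control 3, 22 without Rspo2-AAV 4, 2 without Rspo2-AAV 6, 3 without Rspo2-AAV 7). The cause of these moves was not tested.

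Log2 differences changed sign for Ighg2c (-0.61 without Rspo2-AAV 1, 2 and control 3, -0.62 without Rspo2-AAV 1 and 2, an alternative added after seeing the data, and -0.83 in numbers 4 to 7), Igha (-0.015 and -0.091 in the last 2 of these), Igkv4-72 (-0.21 without Rspo2-AAV 1 and 2) and Igkv8-27 (-0.055 without Rspo2-AAV 1, 2 and control 3, -0.37 without Rspo2-AAV 1 and 2). So did those of Sdc1 (-0.18), Pigr (0.084) and Fcgrt (0.23) in numbers 1 to 3 and of Xbp1 (0.037) in numbers 4 to 7. For the named members, 603 of the other values kept direction and side of the threshold, 7 passed that had not and 3 no longer passed. Spib and Gzma lost their calls under most alternatives. Over all 268 rows in place of the members, immunoglobulin reads ran from 34.0 to 101 RPM in the controls and from 36.6 to 873 with Rspo2-AAV, in the same order of libraries. Few reads limit V and J segments: 54 of the 65 members had 0 reads in at least 1 library.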

Other observations

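Constant segments under the level threshold gave values that belong to no comparison above. Ighg1, the IgG1 segment, had 19 reads in the 6 controls together and 109, 59, 46, 27, 5 and 1 reads in Rspo2-AAV 1, 2, 4, 5, 6 and 7, or 0.136 FPKM at most in the controls against 1.67, 1.48, 1.08, 0.685, 0.132 and 0.0258. Its order of vector libraries is that of the members. Ighe, the IgE segment, had 0 reads in every control and in Rspo2-AAV 1, 6 and 7, and 4, 10 and 4 reads in Rspo2-AAV 2, 4 and 5. Its highest level, 0.383 FPKM, was in Rspo2-AAV 4. Iglc4, a lambda segment, had 0 reads in all 12 libraries.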
